A study of Rattus norvegicus with 11 samples.

Results

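The retinal transcriptome of P23H rats that had received halofantrine was compared with that of wild-type rats, gene by gene, to ask which differences from wild type were present under the drug, how large they were, and at what abundance they occurred. Libraries were chosen by their labels: 4 from halofantrine-treated P23H females and 2 from untreated wild-type (WT) females, 6 of the 11 libraries of the study. The other 5, from P23H females that had received the solvent DMSO, entered where a library outside that comparison was needed and, as an alternative, in fits that took its spread from all groups. The P23H animals were hemizygous offspring of transgenic line 1 rats and Long Evans rats (strain label P23HxLE), and the WT animals came from another cross (strain label SDxLE). Injections of 5 µL went into the vitreous of both eyes, at a halofantrine concentration the labels give only as a range of 20 to 100 µM. The WT retinas were untreated, so genotype, strain cross and injection differed at the same time and cannot be told apart. WT sample titles also end in L and P23H titles in R, letters that the labels do not explain, and the age at RNA collection was not given in the labels. Each library came from a separate animal.

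Rhodopsin is the light-absorbing protein of rods, the cells that serve dim-light vision and make up most of the photoreceptors of a rat retina. The P23H form misfolds, and rods that carry it die over time, followed by cones. Halofantrine is an antimalarial drug. Because whole retinas were sequenced, fewer cells of a type and less RNA per cell cannot be told apart in any value below. The deposited tables give Ensembl identifiers, none of which could be paired with a gene symbol here, so the tissue label could not be checked against retinal markers and genes are described by their levels.

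Gene counts totalled between 12760718 and 29226998 in the 6 libraries. Halofantrine replicate 1 stood apart from the others of its group. It had 209 genes more than 2-fold above every other halofantrine library, against 1 to 19 such genes in each of the other 3. Of its transcript counts, 3.79% fell outside the deposited gene table, against 1.58% to 1.70% in the other halofantrine libraries and 1.64% and 1.70% in WT. DMSO replicate 3 likewise stood apart from the other DMSO libraries. The main counts, sizes and splits by abundance are given with and without these libraries where they enter the fit.

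Halofantrine-treated P23H retinas differed from WT in 2348 of 12025 genes tested, or 19.5%, by the quasi-likelihood test of edgeR (Benjamini-Hochberg adjusted p, threshold 0.05). Of these, 1071 genes (8.91%) were higher and 1277 (10.6%) were lower in the treated retinas. In each of the 2348 genes, the 4 treated libraries lay wholly above or wholly below both WT libraries. Such separation was common in the table as a whole, where 5876 genes (48.9%) showed it, 2683 (22.3%) with the treated libraries above and 3193 (26.6%) with them below. Over all genes tested, the median absolute difference was 0.30 on the log2 scale and the median standard error was 0.17.

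The count of genes past the threshold depended strongly on single libraries. Without halofantrine replicate 1 it rose to 5321 genes, or 44.2%, with 2463 higher and 2858 lower. All 2348 genes kept their call and direction in that fit, and 2973 genes were gained, 1392 higher and 1581 lower. The gained genes had a median absolute log2 difference of 0.41 with all 6 libraries and 0.50 without replicate 1. The biological coefficient of variation, the typical relative spread between animals of a group, was 0.193 with replicate 1 and 0.121 without it. Leaving out halofantrine replicate 3 gave 1413 genes. With WT replicate 1 left out 430 genes passed, and with WT replicate 2 left out 507 passed, in fits that assume the lone WT library to vary as the treated ones do.

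The direction of the split depended on scaling. With library totals alone, without trimmed mean of M-values (TMM) factors, the median log2 difference of all genes moved up by 0.17, and 1975 genes were higher and 730 lower, so that 27.0% of the calls were lower in place of 54.4%. With upper quartile factors 1429 were higher and 950 lower, or 39.9% lower. The TMM factors were 0.92 to 0.93 in WT and 1.02 to 1.06 in the treated libraries.

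Most differences were modest in size. The median gene of the higher set was 1.95-fold above WT, a log2 difference of 0.96 with quartiles of 0.70 and 1.53. The median gene of the lower set was 1.69-fold below WT, a log2 difference of -0.75 with quartiles of -1.06 and -0.58. The smallest absolute log2 difference that passed the threshold was 0.34. Without halofantrine replicate 1, when many smaller differences passed, the medians were 0.65 and -0.60.

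Among genes past the threshold, larger differences were more often upward in the 6 libraries. At least 2-fold differences were found in 866 genes past the threshold (7.20% of those tested), 503 of them higher (4.18%) and 363 lower (3.02%). At 4-fold or more, 166 genes were higher and 51 lower. At 8-fold or more, 59 were higher and 19 lower. The 2-fold genes thus made up 47.0% of the higher set and 28.4% of the lower set. The upward excess at 2-fold lay in the lower part of the abundance range. Of the 10 equal groups by abundance described below, the lowest held 290 of the higher and 50 of the lower 2-fold genes. The highest group held 15 higher and 99 lower. Higher genes were the more numerous in each of groups 1 to 5, and lower genes in each of groups 6 to 10. A further 179 genes differed by at least 2-fold without passing the threshold. Without replicate 1, all 866 genes kept their call, and the split at 2-fold narrowed to 563 higher and 498 lower. With all 11 libraries in 1 fit the split of calls turned, to 232 higher and 273 lower. Whether past the threshold or not, 718 genes in that fit were at least 2-fold higher and 352 lower. With the 6 libraries alone these numbers were 654 and 391. Without DMSO replicate 3 in the fit of all groups, 573 genes past the threshold were higher and 356 lower. At 4-fold or more the higher genes were the more numerous in each of these fits, with 161 against 65, 70 against 32 and 187 against 40.

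**Figure D1:**
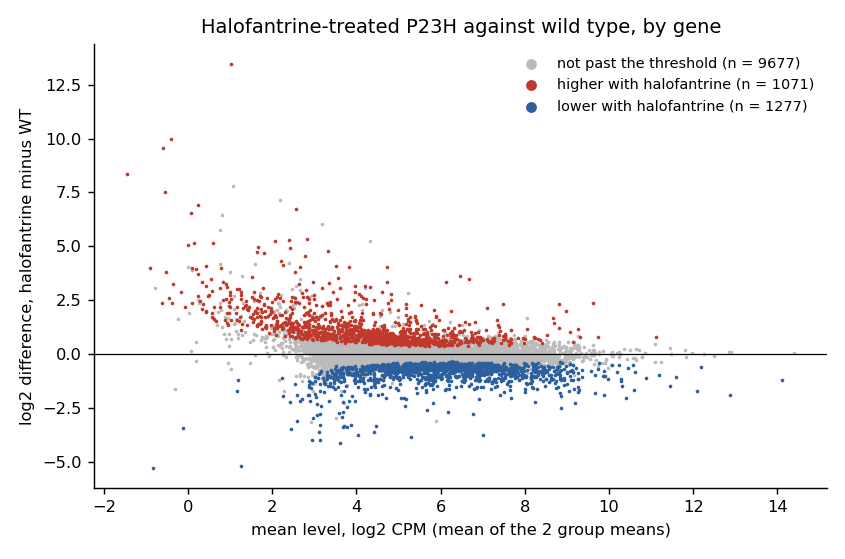
Each point is a gene, with its mean level (log2 CPM, where CPM are counts scaled to a library total of 1000000) on the x axis and its log2 difference, halofantrine minus WT, on the y axis. The 1071 higher genes (red) spread furthest at low levels and the 1277 lower genes (blue) reach to the most abundant genes. The highest points are genes with 0 to 3 counts in both WT libraries, whose fitted difference depends on the prior count.

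Abundance and direction were related. Genes were divided into 10 groups of equal size by mean log2 CPM, with the WT and treated means weighted equally. The limits of the groups are on that log2 scale, turned back to CPM. In the lowest group, from 0.368 to 9.996 CPM, 410 of 1203 genes (34.1%) passed the threshold, 355 higher and 55 lower. In the highest group, from 161 to 21546 CPM, 311 of 1203 (25.9%) passed, 41 higher and 270 lower. The 8 groups between held 15.6% to 18.6% of their genes past the threshold.

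The share of calls that were lower was 41.2% in the second group, 52.6% in the fifth, 82.1% in the ninth and 86.8% in the highest. By mean CPM, in place of mean log2 CPM, the median level was 20.3 CPM in the higher set and 66.6 CPM in the lower set. It was 39.2 CPM for all genes tested, and the levels that follow are also mean CPM. Among 2398 genes of at least 100 CPM, 86 were higher and 463 lower. Among the 59 genes of at least 1000 CPM, 2 were higher and 23 lower. Of the 20 most abundant genes, 7 were lower and 1 was higher.

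The same contrast between the ends of the range was present under each scaling tried. With library totals alone, 466 genes of the lowest group were higher and 47 lower, while 106 of the highest group were higher and 197 lower. With all 11 libraries in 1 fit, the lowest group had fewer calls, 113 higher and 43 lower, and the highest group had 30 higher and 209 lower. Without DMSO replicate 3 in that fit, the lowest group had 474 higher and 72 lower, and the highest 84 higher and 369 lower. Without halofantrine replicate 1 the lowest group had 529 higher and 126 lower, and the highest group had 186 higher and 448 lower, so that 70.7% of its calls were lower.

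**Figure D2:**
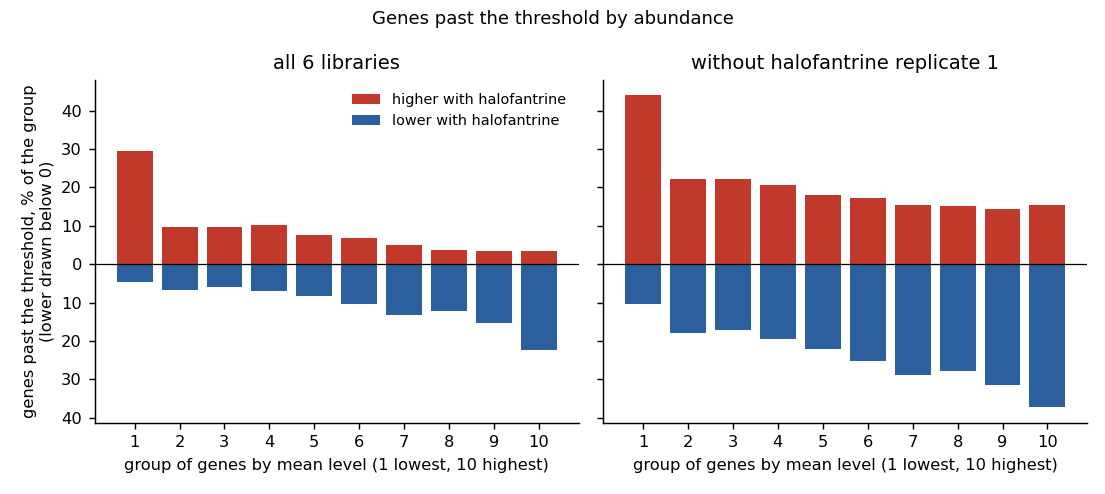
Bars give the share of genes in each group of mean level (x axis, 1 lowest to 10 highest) that passed the threshold, in percent (y axis), with higher genes in red above 0 and lower genes in blue below 0. With all 6 libraries (left) 355 of 1203 genes in the lowest group were higher and 270 of 1203 in the highest group were lower, and the same ends lead without halofantrine replicate 1 (right).

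The deposited gene table had been filtered by a rule that was not stated, in a study in which most libraries are P23H. Between 12 and 18 genes lay under 1 CPM in each treated library, and 86 and 93 genes in the WT libraries. The part of that filter in the excess of higher genes at low abundance was not tested. In the transcript table, which holds 95472 transcripts, 179 transcripts had at most 3 counts in both WT libraries and a mean of at least 5 CPM under halofantrine, and 19 transcripts showed the opposite. Without replicate 1 these numbers were 114 and 42. The first rule asks for low counts in 2 WT libraries and the opposite in all 4 treated ones. The numbers in the 2 directions are therefore not on equal terms.

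Of genes in the deposited table, 6 met the first of these rules and 0 the opposite, with TMM-scaled CPM where the transcripts had CPM from library totals. The 6 genes held 0 to 3 counts in WT, 2 of them 0 in both libraries, and 32 to 2241 counts in the treated libraries. All 6 passed the threshold of the edgeR quasi-likelihood test, with adjusted p-values from 0.000441 to 0.0458. The rule already asked for a large difference from WT, so these p-values add no support of their own. Without replicate 1, 4 of them still met the rule. The same genes held 27 to 1590 counts in 4 of the DMSO libraries and 125 to 14180 in DMSO replicate 3, the library that stands apart.

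The shift of abundant genes was visible in the make-up of the libraries. The 1277 lower genes took 14.5%, 15.7%, 14.4% and 15.4% of the counts in halofantrine replicates 1 to 4, and 27.1% and 26.2% in the WT libraries. The 1071 higher genes took 6.58%, 6.11%, 6.23% and 6.53% of the treated libraries and 2.88% and 2.82% of WT. These sets were chosen by the difference itself, so the gap to WT is a description. Replicate 1 lay close to the other treated libraries for both shares, but it took part in choosing the sets, which favours that closeness. Over genes past the threshold without replicate 1, the higher ones had a median log2 difference of 0.49 in it and 0.64 in the others. The lower ones had -0.34 and -0.60. That choice in turn favours the others.

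The DMSO libraries had no part in choosing the 1071 higher and 1277 lower genes. The lower genes took 10.3% of DMSO replicate 3 and 13.9% to 15.9% of the other 4 DMSO libraries. The higher genes took 14.7% of DMSO replicate 3 and 5.91% to 6.49% of the other 4. Apart from DMSO replicate 3, the ranges of the DMSO and halofantrine libraries overlapped in both shares.

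**Figure D3:**
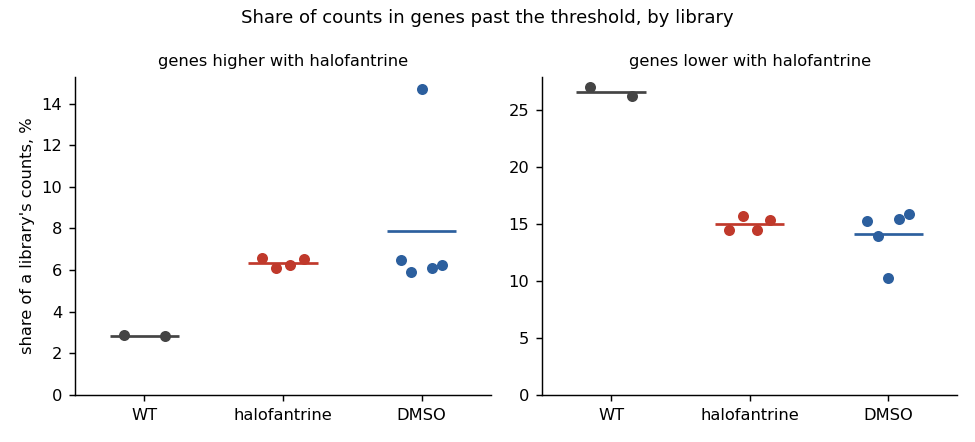
Points give the share of each library's counts, in percent (y axis, from 0), that fell on the 1071 genes higher (left) or the 1277 genes lower (right) with halofantrine, for 2 WT, 4 halofantrine and 5 DMSO libraries, with lines at group means. The lower genes hold 26.2% to 27.1% of WT counts and 14.4% to 15.7% under halofantrine, and DMSO replicate 3 is the DMSO point at 14.7% (left) and 10.3% (right).

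The largest losses in absolute level were found in some of the most abundant genes of these libraries. The gene with the largest loss stood at 25801 and 28256 CPM in the WT libraries and at 11827 ± 2834 CPM (SD, n = 4; lowest 8040, highest 14072) under halofantrine. Its log2 difference was -1.19 (SE 0.22, adjusted p = 0.00907, edgeR quasi-likelihood test). Every treated library lay far below both WT libraries, and the treated libraries themselves were widely spread.

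The next gene fell from a WT mean of 14420 CPM to 3940 ± 663 CPM (SD, n = 4), a log2 difference of -1.87. The third fell from 7908 to 2426 ± 180 CPM, a log2 difference of -1.70. Over the 8 genes with the largest losses, log2 differences ran from -2.03 to -0.59, and together these genes took 2.24% to 3.26% of the counts in treated libraries and 6.72% and 6.16% in WT. For all 8 genes the mean of the 4 treated libraries was above that of the 5 DMSO libraries, and so nearer to WT. For 7 of 8 it was above that of the DMSO libraries without replicate 3. The individual levels overlapped those of these 4 DMSO libraries in 7 of the 8 genes. In the edgeR quasi-likelihood test of 11 libraries, the lowest adjusted p for halofantrine against DMSO was 0.444. In the same test without DMSO replicate 3 it was 0.275. The share of all genes with this order or overlap was not counted, so these tallies describe the 8 genes only.

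Among the genes that gained most in level, the first stood at 328 and 363 CPM in WT and at 1786 ± 238 CPM (SD, n = 4; lowest 1483, highest 2063) under halofantrine. Its log2 difference was 2.37 (SE 0.17, adjusted p = 0.000251, edgeR quasi-likelihood test). The third rose from a WT mean of 203 CPM to 1009 ± 99.9 CPM (SD, n = 4). The 8 genes with the largest gains took 0.968% to 1.13% of treated libraries and 0.389% and 0.355% of WT, so that in counts the gains at this end were much smaller than the losses. The treated mean was above the mean of the 5 DMSO libraries, and so further from WT, in 4 of the 8 genes, and above that of the DMSO libraries without replicate 3 in 7 of 8. The individual levels overlapped those of these 4 DMSO libraries in 7 of 8 genes. In the edgeR quasi-likelihood test of 11 libraries, the lowest adjusted p for halofantrine against DMSO was 0.434. In the same test without DMSO replicate 3 it was 0.186. As for the losses, the share over all genes was not counted.

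Genes with the smallest p in each direction, among those of at least 1 CPM whose libraries did not overlap, are given with their level in every library. That choice favours close levels within groups and a wide gap from WT, so both are descriptions. ENSRNOG00000017525 stood at 1.07 and 0.762 CPM in WT, and at 31.6, 27.6, 26.5 and 30.5 CPM in halofantrine replicates 1 to 4. The gene was nearly silent in both WT retinas and was present at closely similar levels in the 4 treated ones. It was 30.8-fold higher, a log2 difference of 4.95 (SE 0.23, adjusted p = 9.14e-05, edgeR quasi-likelihood test), and 4.89 without replicate 1. Its level in the DMSO libraries was 28.5, 29.2, 22.95, 31.9 and 29.3 CPM. Between halofantrine and DMSO the log2 difference was 0.0043, with a 95% interval from -0.26 to 0.27 that leaves out any difference near the size of that from WT.

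ENSRNOG00000002919 stood at 22.3 and 27.4 CPM in WT, and at 313, 334, 295 and 290 CPM under halofantrine. The groups were far apart, and the treated libraries were close to each other. The log2 difference was 3.63 (SE 0.17, 12.4-fold), with and without replicate 1. In the DMSO libraries the levels were 492, 249, 1692, 426 and 350 CPM, the highest in DMSO replicate 3. All of these except that of replicate 2 lay above the 4 treated levels. The log2 difference of halofantrine from DMSO was -1.06 (95% interval -2.11 to -0.02), with an adjusted p of 0.457 in the edgeR quasi-likelihood test over all genes. Without DMSO replicate 3 it was -0.32 (95% interval -0.71 to 0.07).

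ENSRNOG00000076517 stood at 43.2 and 59.5 CPM in WT, and at 3.73, 2.64, 2.43 and 2.79 CPM under halofantrine. Little of this RNA was left in any treated retina, and replicate 1 held the most. The log2 difference was -4.13 (SE 0.21), a level 17.5-fold below WT. The DMSO libraries stood at 2.53, 2.89, 7.68, 2.08 and 2.16 CPM and overlapped the treated ones. Halofantrine and DMSO differed by -0.26 on the log2 scale, with a 95% interval from -1.08 to 0.55. Without DMSO replicate 3 the sign turned, to 0.27 (95% interval -0.13 to 0.67).

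ENSRNOG00000017260 stood at 67.2 and 66.5 CPM in WT, and at 16.3, 15.4, 16.9 and 16.9 CPM under halofantrine. The levels within each group were very close. The log2 difference was -2.03 (SE 0.11), a level 4.09-fold below WT. The DMSO libraries stood at 11.7, 10.03, 9.57, 13.2 and 14.9 CPM, all below the lowest treated library. The log2 difference of halofantrine from DMSO was 0.43 (SE 0.14, 95% interval 0.12 to 0.74), with an unadjusted p of 0.0109 and an adjusted p of 0.434 in the edgeR quasi-likelihood test. Without DMSO replicate 3 it was 0.37 (95% interval 0.10 to 0.64) with an adjusted p of 0.221.

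**Figure D4:**
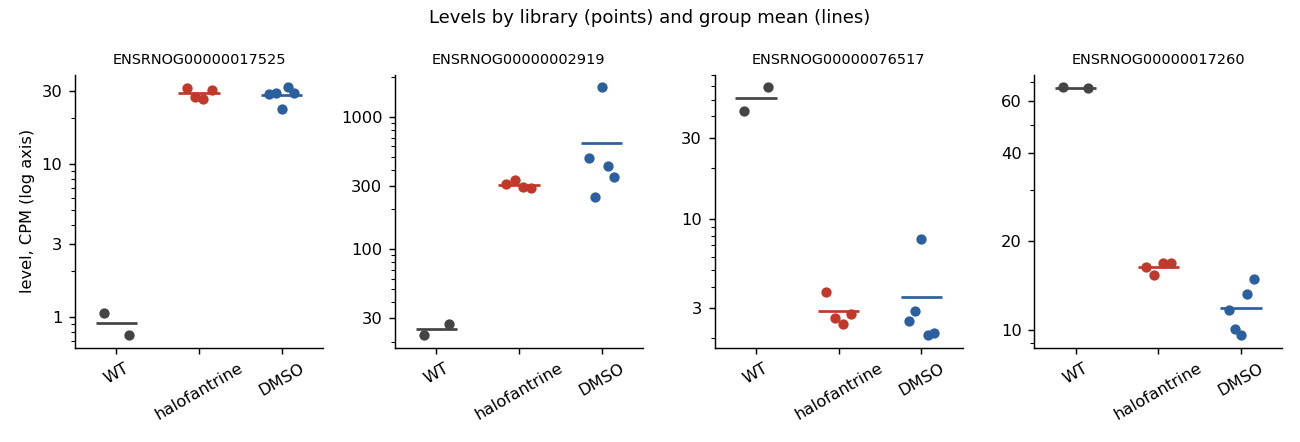
Levels in CPM (y axes, logarithmic) of 4 genes, the 2 with the smallest p in each direction, 1 point per library and a line at each group mean, for 2 WT, 4 halofantrine and 5 DMSO libraries. The 4 halofantrine libraries lie close together and far from both WT libraries, as the choice by smallest p favours. The DMSO libraries lie on the same side of WT.

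Halofantrine and DMSO retinas share the WT libraries as their reference, so their differences from WT are not independent. With all 11 libraries in 1 fit, DMSO differed from WT in 2548 of 12031 genes (21.2%), 1308 higher and 1240 lower, and halofantrine differed from WT in 1580. Of the same 12031 genes, halofantrine against DMSO gave 1 past the threshold (0.00831%) and 1310 at an unadjusted p under 0.05, before any adjustment for the number of genes. DESeq2 gave 34 genes for that contrast, and limma-voom with sample weights gave 742. Without DMSO replicate 3, DMSO differed from WT in 3646 genes, halofantrine from WT in 3588 and halofantrine from DMSO in 1.

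To read how far the differences of DMSO-injected P23H retinas were present under the drug without sharing libraries, genes were chosen as at least 2-fold different between 2 DMSO libraries and 1 WT library, and then read in the 4 halofantrine libraries against the other WT library. A second choice exchanged the WT libraries and used another pair of DMSO libraries. DMSO replicate 3 took part in neither choice.

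Over the 622 genes chosen as higher the first time, the median log2 difference from WT was 1.74, 1.29, 1.31 and 1.31 in halofantrine replicates 1 to 4. The DMSO libraries that took no part in the choice gave 1.37, 1.36 and, in replicate 3, 3.33. Replicates 2 to 4 thus lay slightly below the 2 DMSO libraries other than replicate 3, and replicate 1 lay above them. A choice made in DMSO libraries can favour larger differences in the other DMSO libraries, and all these readings share 1 WT library. The order was not tested. Over the 601 genes of the second choice, the halofantrine medians were 1.71, 1.35, 1.35 and 1.37, and the DMSO medians were 1.59, 1.35 and, in replicate 3, 3.15.

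Over the 424 genes chosen as lower the first time, the halofantrine medians were -1.22, -1.19, -1.29 and -1.11, and the DMSO medians were -1.25, -1.10 and, in replicate 3, -1.85. Over the 492 genes of the second choice, the halofantrine medians were -0.92, -1.12, -1.30 and -1.23, against -1.13, -1.23 and, in replicate 3, -1.64. The halofantrine libraries overlapped the DMSO libraries other than replicate 3 in both choices. Of the higher genes 66.9% to 77.7% were at least 2-fold above WT in each halofantrine library, and of the lower genes 46.7% to 74.1% were at least 2-fold below. The lowest of these shares was that of halofantrine replicate 1 in the second choice. In the DMSO libraries left out of each choice, other than replicate 3, the shares were 70.2% to 81.2% and 56.7% to 71.2%. The ranges of the 2 treatments thus overlapped.

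Genes were also chosen from 2 halofantrine libraries and 1 WT library, without replicate 1, and read elsewhere. Over the 531 genes chosen as higher the first time, the median log2 difference was 1.80 in replicate 1 and 1.46 in replicate 4, and 1.43 to 1.69 in the DMSO libraries other than replicate 3. Over the 490 genes chosen as lower, it was -1.08 in replicate 1, -1.21 in replicate 4 and -1.30 to -1.13 in the same DMSO libraries. In the second choice the 633 higher genes gave 1.71 in replicate 1 and 1.29 in replicate 2. The 681 lower genes gave -0.63 and -0.94 in the same order. The DMSO libraries other than replicate 3 gave 1.28 to 1.48 over these higher genes and -1.04 to -0.83 over these lower genes. In both choices replicate 1 lay further from WT than these DMSO libraries over the higher genes, and nearer to WT over the lower genes.

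The place of replicate 1 varied with abundance, as read beside the 1 other treated library that each choice left out, replicate 4 in the first and replicate 2 in the second. Among the genes of the first choice under 10 CPM, the higher ones had a median log2 difference of 2.04 in replicate 1 and 1.45 in replicate 4, and the lower ones -0.81 and -1.40. In the second choice the values under 10 CPM were 2.01 in replicate 1 and 1.49 in replicate 2 for higher genes, and -0.51 and -0.88 for lower genes. Between 10 and 100 CPM the lower genes gave -0.97 in replicate 1 and -1.21 in replicate 4 in the first choice, and -0.47 in replicate 1 and -0.86 in replicate 2 in the second. The higher genes between 10 and 100 CPM gave 1.51 and 1.46 in the first choice, close to each other, and 1.40 and 1.13 in the second. Above 100 CPM the lower genes differed from WT at least as much in replicate 1 as in the other treated library, with medians of -1.27 and -1.16 in the first choice and -1.17 and -1.05 in the second. What sets replicate 1 apart was not tested.

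**Figure D5:**
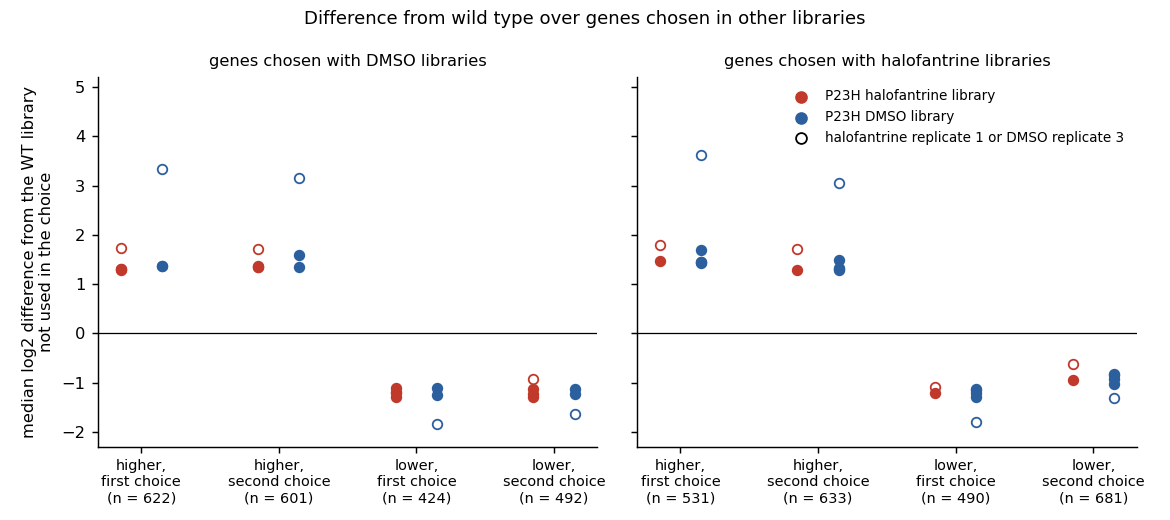
Points give the median log2 difference of a library (y axis) from a WT library, over genes chosen as at least 2-fold different in other libraries (x axis, n genes). Genes were chosen with DMSO libraries (left) or with halofantrine libraries (right), and filled halofantrine points (red) lie near filled DMSO points (blue) while halofantrine replicate 1 and DMSO replicate 3 (open points) lie higher for the higher genes.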

How the data were processed

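Retinal RNA of 11 female rats was sequenced, with 1 strand-specific library of polyadenylated RNA per animal. The study's methods give quality control, kallisto against the rat Ensembl transcriptome and tximport. Kallisto divides reads that fit several transcripts, so near-identical genes can share counts. The authors deposited estimated counts of genes and of transcripts, without depth scaling, and the gene table of 12037 genes had passed a filter that is not given in the sources used here. A deposited signal table normalized per library, and the authors' table of halofantrine against DMSO with log2 fold changes, p-values and scores, were not used.

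Estimated counts were rounded. Genes were filtered by filterByExpr, which removed 12 and left 12025. Halofantrine was compared with WT by the quasi-likelihood test of edgeR 4.0.16 (R 4.3.3) with TMM factors on the 6 libraries alone, with Benjamini-Hochberg adjustment over all genes and a threshold of 0.05. The residual degrees of freedom were 4, and an exact permutation test of 1 gene could not give a p under 0.0667. Intervals are at 95%. Levels of genes are TMM-scaled CPM on 1 scale for all libraries, and log2 CPM used a prior count of 2. Transcript CPM were scaled by library totals alone. DMSO contrasts used all 11 libraries in 1 fit. Fits were tested on simulated counts. None of the 15 pairs among the halofantrine and WT libraries agreed within counting error (lowest chi-square per degree of freedom 6.87).

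DESeq2 1.42.0 and limma-voom (limma 3.58.1) were run as alternatives, with other scalings, filters, thresholds and libraries left out. The choices that held libraries out, the transcript counts, the genes near 0 in 1 group, the contrasts of named genes without DMSO replicate 3 and the splits by size and abundance in other fits were added after seeing the data. The libraries, gene lists, tests and naming rule were chosen with earlier results of these data known. The naming rule took the smallest p in each direction, among genes of at least 1 CPM without overlap between groups, and 2 per direction are given. The genes of largest absolute loss and gain were taken by the difference of mean CPM among genes past the threshold. None of the 47357 entries of the gene name table carries an Ensembl identifier and 0 identifiers matched, so gene lists, cell type markers and sequences were not analysed here.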

Additional observations from a re-analysis of the deposited data

Results flagged for a closer look

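In groups of 4 or 5 libraries, 8 of 26 sets of values held a library further from the others than Dixon's critical value, where chance gives about 1.3. All 8 were halofantrine replicate 1 or DMSO replicate 3. The flagged sets share libraries and in part genes, so the 8 are not separate results and were not weighed against the 1.3. The share of transcript counts outside the deposited gene table was 3.79% in halofantrine replicate 1, against 1.58% to 1.70% in the others of its group. In DMSO replicate 3 it was 3.41%, against 1.71% to 1.90%.

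In halofantrine replicate 1, the median log2 difference from WT over genes chosen as higher in DMSO libraries was 1.74 in the first choice, against 1.29 to 1.31 in the other treated libraries. In the second choice it was 1.71, against 1.35 to 1.37. Over genes chosen as lower in DMSO libraries, this library did not pass Dixon's critical value.

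DMSO replicate 3 devoted 14.7% of its counts to the genes higher under halofantrine, against 5.91% to 6.49% in the other DMSO libraries. The 8 genes of largest gain took 2.02% of its counts, against 0.913% to 1.04%. Its level of ENSRNOG00000002919 was 1692 CPM, against 249 to 492 CPM. Its level of ENSRNOG00000076517 was 7.68 CPM, against 2.08 to 2.89 CPM.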

How the results depend on the processing

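Halofantrine against WT gave 430 to 5321 genes with 1 of its 6 libraries left out, the lowest without WT replicate 1 and the highest without halofantrine replicate 1, and 3588 with the DMSO libraries other than replicate 3 added. It gave 6411 genes by limma-voom with sample weights, 823 at an adjusted p under 0.01, 866 with at least 2-fold, 545 against a 1.5-fold null by glmTreat, and 4325 at an unadjusted p under 0.05 with at least 1.2-fold. Counts by DESeq2 (3252), limma-voom (1961), robust dispersions (2374), no filter (2349) and unrounded counts (2348) were within 1.5 times the 2348 reported. DMSO against WT gave 7207 genes with sample weights. Halofantrine against DMSO gave 2 genes without halofantrine replicate 1, 34 by DESeq2 and 742 with sample weights. In the most abundant group 25.9% of genes passed, 22.2% with 5 groups in place of 10 and 52.7% without halofantrine replicate 1. The causes were not tested. The 4 named genes, chosen for a small p in these same libraries, kept their direction and call in every alternative run with 2 WT libraries. They kept their direction with 1 WT library left out. No paired analysis was possible because the labels give no replicate numbers shared between groups. Alternatives for the gene lists were not run, since no identifier could be matched. With 2 WT libraries, which also differ in strain cross and injection, the WT spread rests on 1 pair of animals.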
